A study of Mus musculus with 12 samples.

Results

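The C57MG line, which the study describes as mouse mammary epithelial, was treated here with recombinant human R-spondin2 (Rspo2) and recombinant mouse Wnt3a together, or with bovine serum albumin (BSA), the carrier protein, as the control. The samples were chosen by their labels: the 3 monolayers given both proteins, at 100 ng/ml each, against the 3 given BSA, which makes 6 of the 12 arrays of the study. Cells were plated overnight, moved to serum-free DMEM and treated for 24 h, and total RNA from each monolayer was hybridised to its own 1-colour Agilent 4x44K array. The other 6 arrays hold Rspo2 alone and Wnt3a alone at the same dose and time, and their values are given only beside genes where they show how the combination differed. All samples come from 1 cell line, so p-values measure the spread between monolayers of that line.

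Wnt proteins bind Frizzled receptors and the co-receptors Lrp5 and Lrp6, which stops the destruction of β-catenin and lets it act with Tcf/Lef factors in the nucleus. R-spondins bind Lgr receptors and the ubiquitin ligases Rnf43 and Znrf3, which otherwise remove Frizzled receptors from the cell surface. Several targets of the pathway, among them Axin2, Notum and Apcdd1, encode inhibitors that act back on it. Interferons work through another route, in which a complex that holds Stat2 and Irf9 binds the interferon-stimulated response element (ISRE) and switches on antiviral genes.

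A level below is the log2 signal of a probe less the 75th percentile of its array, so that 0 is the level of a probe at that percentile, and levels are compared only within a probe. A probe was called up- or down-regulated where its change reached 2-fold with an adjusted p under 0.05 in limma, over the 22751 probes that the scanner software marked as well above background on every array of some group of 3. By this rule 1.28% of the tested probes were up-regulated and 3.79% down-regulated by Rspo2 plus Wnt3a. Among the 21208 probes with that mark on all 6 arrays compared, 184 (0.868%) were up-regulated and 657 (3.1%) down-regulated. Taking for each gene the probe with the strongest mean signal, 192 of 12708 genes were up-regulated (1.51%) and 379 down-regulated (2.98%), and the median change over all these genes was 0.07 on the log2 scale. Gene counts below are read against these shares. Between 53.2% and 64.2% of the probes of an array were well above background, the latter in BSA replicate 1, and no probe was saturated. The number of arrays limits the precision of each value.

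The BSA arrays all lay on 1 slide and the Rspo2 plus Wnt3a arrays on another, so slide and treatment cannot be told apart within these 6 arrays and no within-slide value exists. A fit over all 12 arrays with slide as a term was possible only through the groups treated with 1 protein. Rspo2 replicate 1 lay with BSA on slide 1, and Wnt3a replicate 3 with the combination on slide 3. The other arrays treated with 1 protein lay on slide 2. The slide correction thus rests on these single arrays, set against the others of their groups, and an oddity of either enters every corrected change. This fit called 118 up-regulated and 303 down-regulated probes among those above background on all 6 arrays. Where it ended the call of a gene or list described here, that is stated. A lost call need not mean a smaller change. Fgf7, for example, lost its call at a log2 difference of -2.04 with this term, against -1.88 without it. Of the called genes given here, the methods' t-test, run on the same values with Benjamini-Hochberg adjustment, did not call Rmrp, Mx2, Axin2, Wnt9a, Irf7, Ccl20, Hp, Saa3, Fgf7, Fst, Ltbp2, Igfbp2, Hgf, Cyp26b1 and Stra6.

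The largest increases outside the genes that the study tabulated were led by Ch25h, the enzyme that makes 25-hydroxycholesterol. Its levels were -3.64, -3.87 and -4.20 in the BSA replicates and 0.38, 0.21 and 0.36 in the Rspo2 plus Wnt3a replicates, an 18.7-fold rise (log2 change 4.22, SE 0.14, limma adjusted p = 2.72e-08). Over the alternatives its log2 change was 2.97 to 4.38, with the call kept in each. Kcnj2, an inwardly rectifying potassium channel, was at -2.99, -3.21 and -3.38 in BSA and at -0.15, -0.14 and -0.51 with both proteins, a 7.6-fold rise (log2 change 2.93, SE 0.23, limma adjusted p = 9.1e-06), which the slide term brought down to 1.83 on the log2 scale. The choice of genes required that the groups not overlap. For both genes the spread within each group was well under the change. Other large rises were those of the lens crystallin Crybb1 (5.89-fold), the homeodomain protein Hopx (5.54-fold), the Ly6 family member Lypd2 (5.43-fold), Fam167a (4.9-fold), the RNA component of RNase MRP, Rmrp (4.88-fold), and Adamtsl2, a secreted glycoprotein of microfibrils (4.29-fold). The calls of Crybb1, Hopx and Rmrp were lost after normexp background correction and those of Prr32 (5.23-fold) and the complement receptor C5ar2 (3.65-fold) were lost both there and with slide as a term. With that term the log2 change was 1.53 in place of 2.39 for Prr32, and 2.14 in place of 1.87 for C5ar2. Gadd45g, which encodes a growth arrest and stress sensor, was at 3.57, 3.65 and 3.54 in BSA and at 5.95, 5.78 and 5.65 with both proteins (4.6-fold, log2 change 2.20, SE 0.09, limma adjusted p = 1.41e-07).

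Among the largest decreases by the same choice of genes, Oas2, an enzyme that double-stranded RNA activates to make 2′-5′ oligoadenylate, fell from -0.73, -0.73 and -0.84 in BSA to -4.04, -3.99 and -4.00 with both proteins (log2 change -3.24, SE 0.15, limma adjusted p = 2.6e-07). Foxred2, a flavoprotein of endoplasmic reticulum degradation, fell from -1.56, -1.62 and -1.69 to -4.83, -4.74 and -4.48 (log2 change -3.06, SE 0.11, limma adjusted p = 5e-08). Abcg1, which exports sterols from cells, fell from -2.47, -3.21 and -3.03 to -5.47, -5.28 and -5.26 (log2 change -2.44, SE 0.18, limma adjusted p = 4.46e-06). In all 3 genes every treated array lay below every control array, which the choice of genes required. The call of Abcg1 was lost after normexp. Others in this group were the antiviral protein Rsad2 (log2 change -2.66), the collagen chain Col22a1 (-2.35, with -0.80 and no call at its second probe), the multidrug transporter Abcc3 (-2.25), angiotensinogen, Agt (-2.16), and Lypd6b (-2.14), a relative of Lypd2 that changed the other way. For Col22a1 and Agt the log2 differences from the same BSA arrays were 0.29 and 0.54 with Rspo2 alone, and -0.81 and -0.77 with Wnt3a alone. Mx2 (-3.21) and Ifi44 (-2.33), both interferon-induced, lost their calls with slide as a term, where their log2 differences were -2.90 and -1.83.

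**Figure D1:**
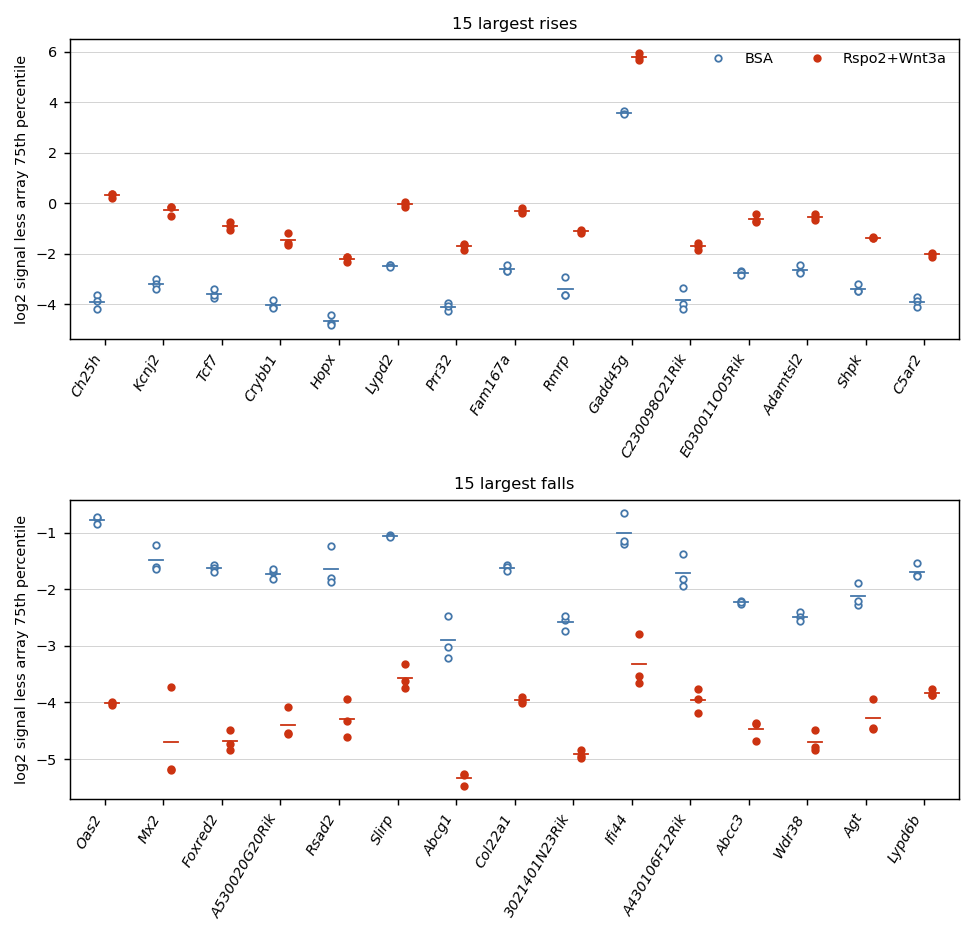
Levels (log2 signal less the 75th percentile of the array) of the 15 genes with the largest rise and the 15 with the largest fall among genes outside the tables of the study and well above background on all 6 arrays, with open circles for the 3 BSA arrays, filled circles for the 3 Rspo2 plus Wnt3a arrays and bars for group means. The groups do not overlap in any gene shown, which the choice of genes required; of the genes shown, Ch25h has the largest rise at 4.22 and Oas2 the largest fall at -3.24.

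Genes of innate immunity were lower with both proteins in 7 lists of related function. None of their tested members was up-regulated, except that 1 complement gene, C2, was after quantile normalisation. The largest counts came from antiviral effectors, with 14 of 35 tested genes down-regulated and a median log2 change of -0.69, and from chemokines, with 10 of 12 down-regulated and a median of -1.43. Interferon-induced GTPases had 6 of 12 down-regulated (median -0.98), complement components and regulators 6 of 11 (median -1.29) and secreted acute phase proteins 7 of 13 (median -1.38). Cytosolic and surface sensors had 3 of 19 (median -0.45), and the interferon signalling factors 4 of 19 (median -0.27). With slide as a term, 7 antiviral effectors, 8 chemokines, 4 GTPases, 5 complement genes, 7 acute phase genes, 3 sensors and 3 signalling factors were called down-regulated. The tables of the study hold members of these lists, among them Irf7, C3, Ccl5, Ccl7, Saa3, Hp and Lcn2, so the direction of the lists is not independent evidence.

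The signalling factors that fell included those that bind the ISRE. Irf9, the DNA-binding partner of Stat2, was at -0.26, -0.27 and -0.23 in BSA and at -1.86, -1.85 and -1.88 with both proteins (3.06-fold lower, log2 change -1.61, SE 0.08, limma adjusted p = 3.56e-07). The groups were separated by a gap many times the spread of either. Irf7, which amplifies interferon production, fell by 1.85 on the log2 scale, and Usp18, which removes the ubiquitin-like protein Isg15, fell by 1.57. Stat2 fell by 1.45 but lost its call with slide as a term (adjusted p = 0.094). With Wnt3a alone the log2 differences were -1.0 for Irf9, -1.34 for Irf7 and -1.0 for Usp18, and with Rspo2 alone they were -0.51, -0.50 and -0.42.

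Rsad2, an antiviral enzyme also called viperin, was at -1.23, -1.81 and -1.87 in BSA and at -3.93, -4.33 and -4.62 with both proteins (6.32-fold lower, SE of the log2 change 0.20, limma adjusted p = 5.24e-06). Its other probes were 4.11-fold and 2.93-fold lower, and the last lost its call with slide as a term (adjusted p = 0.176). Among the immunity-related GTPases, Iigp1 fell by 1.78, Irgm2 by 1.68 and Igtp by 1.25 on the log2 scale. The sensors that fell were Tlr2, a receptor for bacterial lipopeptides (-1.35), Dhx58, a RIG-I relative (-1.25), and Nod1, a receptor for peptidoglycan fragments (-1.22). The call of Dhx58 was lost after normexp.

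None of the 16 tested genes of class I antigen processing was called. As 4.49% of all genes were called, the absence of a call in so short a list says little. The median log2 difference of the list was -0.01, with -0.18 to 0.10 over the alternatives. Below 2-fold, 4 of these genes were higher and 4 lower at an adjusted p under 0.05 in limma, where at any fold 3192 of all 12708 genes were higher and 2054 lower. The log2 difference was -0.51 for the peptide-trimming enzyme Erap1 and -0.45 for Tapbp, which loads peptides on class I molecules.

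The chemokine with the largest fall among those above background on all 6 arrays was Ccl7, an attractant of monocytes, at 4.56, 4.72 and 4.67 in BSA and 1.85, 1.71 and 1.49 with both proteins (7.83-fold lower, log2 change -2.97, SE 0.14, limma adjusted p = 2.84e-07). Ccl2, of the same family and also a monocyte attractant, was at 5.42, 5.46 and 5.43 in BSA and 3.88, 3.71 and 3.65 with both proteins (log2 change -1.69, SE 0.12, limma adjusted p = 3.36e-06). Cxcl5, an attractant of neutrophils, was at 5.96, 5.97 and 6.01 in BSA and 4.17, 4.16 and 4.09 with both proteins (log2 change -1.84, SE 0.08, limma adjusted p = 1.77e-07). These 3 genes were at high signal in the control cells and the treated arrays lay clearly below in each. Ccl20 was not well above background on any treated array and was at least 2.45-fold lower, a call that was lost with slide as a term and after normexp. With slide as a term its fitted log2 difference, which rests on these dim spots, was -3.9 in place of -2.6.

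For complement, C3, the central component of the cascade, fell from 1.27, 1.13 and 1.19 to -3.10, -2.79 and -2.47 (15.8-fold, log2 change -3.98, SE 0.16, limma adjusted p = 7.61e-08). Serping1, which inhibits the first complement proteases, fell by 1.71 on the log2 scale, and Clu, which blocks the terminal complex, fell by 1.39. The call of Serping1 was lost after normexp. The lowered genes thus included both a component and inhibitors of the cascade, while 2 of the 11 tested genes were higher without a call.

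Among the acute phase genes, Lcn2, a protein that sequesters bacterial siderophores, was at 1.78, 2.04 and 2.0 in BSA and at -5.11, -5.46 and -5.53 with both proteins (log2 change -7.31, SE 0.13, limma adjusted p = 1.37e-10). In the treated group its probe was well above background on 1 of 3 arrays, so the size of the change depends on dim spots. The haemoglobin-binding protein Hp (log2 change -5.72) and Saa3 (-3.37) were likewise well above background on 1 of 3 treated arrays. The call of Saa3 was lost after normexp. Nfkbiz, an inducible NF-kB cofactor, was the only gene called among 15 NF-kB subunits and feedback genes (log2 change -1.63), although the median of that list was -0.50, and with slide as a term 2 were called.

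**Figure D2:**
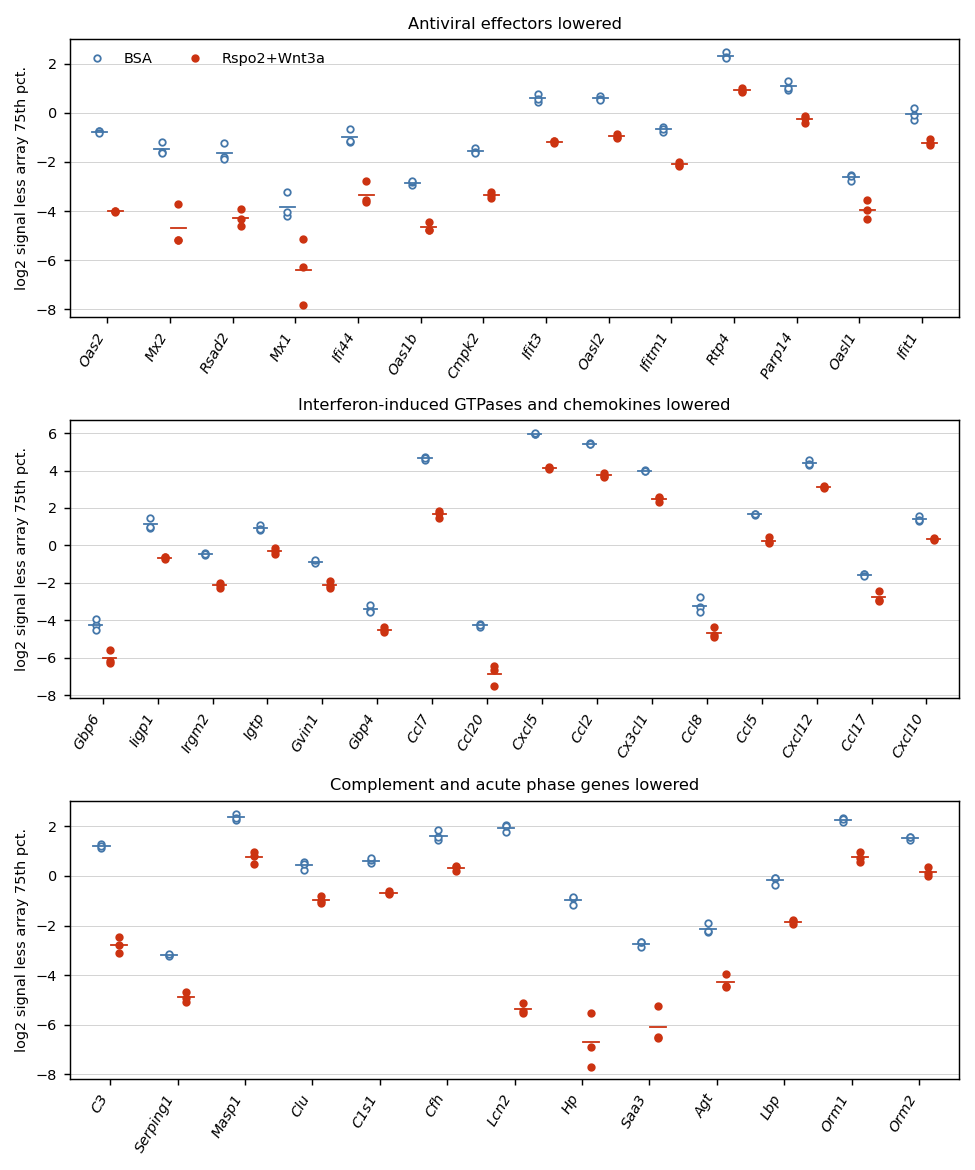
Levels (log2 signal less the 75th percentile of the array) of the down-regulated members of 5 lists (antiviral effectors, GTPases, chemokines, complement, acute phase), with open circles for BSA and filled circles for Rspo2 plus Wnt3a (3 arrays each) and bars for means. The treated arrays lie below the controls in genes such as Oas2 (-3.24), Ccl7 (-2.97) and C3 (-3.98).

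Promoter sequences from RefSeq (GRCm38.p6) are shown for the down-regulated genes with the largest change whose promoter holds an ISRE match and whose call remained with slide as a term, Saa3 and Rsad2. The motif searched was GAAA, any 2 bases and GAAA again, on both strands, and 4.0% of the 27025 genes with an entry had a match in a window of 250 bases before to 50 after a start. Entries were found for 68.8% of the up-regulated and 59.4% of the down-regulated genes, too few for a comparison of motif shares. The bases from 250 to 1 before the start are printed 5′ to 3′ on the strand of the gene, with the match in capitals.
Saa3, chr7:46715677-46715926, minus strand: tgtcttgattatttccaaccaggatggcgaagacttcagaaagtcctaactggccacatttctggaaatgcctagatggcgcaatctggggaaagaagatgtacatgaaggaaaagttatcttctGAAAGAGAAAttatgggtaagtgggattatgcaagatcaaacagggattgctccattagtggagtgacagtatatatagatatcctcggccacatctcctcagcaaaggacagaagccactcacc
Rsad2, chr12:26456453-26456702, minus strand: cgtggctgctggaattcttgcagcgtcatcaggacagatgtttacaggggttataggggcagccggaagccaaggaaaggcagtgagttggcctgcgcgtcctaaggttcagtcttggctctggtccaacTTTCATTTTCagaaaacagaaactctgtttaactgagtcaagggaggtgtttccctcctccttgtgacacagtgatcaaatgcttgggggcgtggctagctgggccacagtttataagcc
The match begins 125 bases before the start in Saa3 and 120 in Rsad2. In Rsad2 it reads on the opposite strand. A match describes letters of the sequence and does not show that a factor binds there.

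Of the feedback inhibitors and targets of the Wnt pathway itself, 5 of 17 tested genes were up-regulated and 2 down-regulated, with a median log2 change of 0.34. With slide as a term 3 were up-regulated and 1 down-regulated. Tcf7, which encodes the nuclear factor Tcf1, had levels of -3.75, -3.62 and -3.38 in BSA and -1.06, -0.88 and -0.74 with both proteins at its probe with the larger change (6.45-fold, log2 change 2.69, SE 0.15, limma adjusted p = 6.74e-07). Notum, which removes the lipid from Wnt proteins, rose from -0.71, -0.57 and -0.63 to 0.91, 0.77 and 0.81 (2.76-fold, log2 change 1.47, SE 0.07, limma adjusted p = 4.21e-07). The log2 difference of Notum was -0.10 with Rspo2 alone and 0.16 with Wnt3a alone. Axin2, the scaffold of the β-catenin destruction complex, was not well above background on any BSA array and rose at least 9.39-fold, a call that was lost after normexp. Beside these genes and Apcdd1, which is given below, the called genes, named after their values were seen, were Znrf3 (1.22) and the down-regulated R-spondin receptor Lgr6 (-1.33) and co-receptor Lrp5 (-1.29). Of these Lgr6 kept its call with slide as a term. The 14 members of this list that were not detected included the inhibitors Nkd1, Dkk1 and Wif1, the receptor Lgr5 and the factors Lef1 and Sp5.

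Of 16 tested Frizzled receptors and Wnt ligands 1 was called (6.25%, against 4.49% of all genes). This was Wnt9a, which was up-regulated (3.07-fold), and its call was lost with slide as a term. The surface inhibitor Apcdd1 rose 2.61-fold and also lost its call with slide as a term (log2 change 1.124 in place of 1.385, limma adjusted p = 0.0632).

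Ligands, receptors and feedback genes of other growth factor pathways changed in both directions. The tables of the study, drawn from these same arrays, hold many of the called genes. Among them are Spry1, Fgfrl1 (there FGFR5), Tgfb2, Inhba, Tgfbr2, Igf1, Irs1, Igfbp2, Edn1, Angpt1 and Angptl4. The counts of these growth factor lists are therefore not independent evidence. Genes of those tables also stand in other lists given here, such as Axin2, Wnt9a, Il33, Ahr, Enpp2 and Klf5. In the Fgf list 4 of 17 tested genes were up-regulated and 1 down-regulated, against 3 and 0 with slide as a term. Spry1, an inhibitor of receptor tyrosine kinase signalling, rose from -2.08, -1.99 and -2.39 to -0.15, -0.02 and -0.06 (4.22-fold, log2 change 2.08, SE 0.10, limma adjusted p = 3.56e-07). The ERK phosphatase Dusp4 rose 2.8-fold and the decoy receptor Fgfrl1 2.46-fold. Spry1 and Dusp4 are known as inhibitors of the kinase cascade below Fgf receptors. The mesenchymal ligand Fgf7 fell by 1.88, but lost its call with slide as a term and after normexp, and was well above background on 1 of 3 treated arrays.

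In the TGF-β and activin list 5 of 23 genes were up-regulated and 3 down-regulated, and with slide as a term 3 and 0 were called. Inhba, which encodes the subunit of activin A, rose from 1.92, 2.10 and 2.03 to 4.11, 3.87 and 3.75 (3.72-fold, log2 change 1.89, SE 0.12, limma adjusted p = 1.37e-06). The ligand Tgfb2 rose from -3.10, -3.47 and -3.57 to -1.17, -1.80 and -0.88 (4.27-fold, SE of the log2 change 0.23, limma adjusted p = 8.79e-05), a call lost after normexp. The groups did not overlap for either ligand, but the treated arrays were more scattered for Tgfb2. Ltbp2, a latent TGF-β binding protein family member of the matrix, fell by 1.75 and lost its call with slide as a term. The other called genes of the list, named after their values were seen, were the receptor Tgfbr2 (1.66), which kept its call under that term, and Fst, Fstl1 (1.09), Tgfbr3 (-1.09) and Ltbp3 (-1.32), which did not. Fst was not well above background on any BSA array and was at least 1.59-fold higher. Its call was also lost after normexp, and its lowest log2 change over the alternatives was 0.12.

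Of the insulin and Igf axis, 3 of 12 genes were up-regulated although the median of the list was -0.29. All 3 are in the tables of the study. With slide as a term 2 were called and the median was -0.48, and it was -0.53 after quantile normalisation. Irs1, the docking protein of the insulin and Igf1 receptors, rose from 3.01, 2.62 and 2.64 to 4.21, 4.41 and 4.5 (3.07-fold, log2 change 1.62, SE 0.14, limma adjusted p = 1.29e-05). Igf1 itself rose 3.2-fold at its brighter probe, which lost its call with slide as a term and after normexp, while its other probe (log2 change 1.80) kept its call with slide as a term (limma adjusted p = 0.00926). Igfbp2, a binding protein of the Igfs, rose by 3.24 on the log2 scale from a control group in which 1 of 3 arrays was well above background, and its call was lost after normexp.

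Of the vascular ligands and receptors, 5 of 23 genes were down-regulated and 1 up-regulated, against 3 and 1 with slide as a term. Angpt1, the ligand of the Tie2 receptor, fell from -0.25, -0.48 and -0.39 to -3.06, -2.70 and -2.99 (5.81-fold, log2 change -2.54, SE 0.14, limma adjusted p = 6.13e-07). The vasoconstrictor Edn1 rose from -1.99, -2.12 and -2.25 to -0.02, -0.03 and -0.07 (4.22-fold, log2 change 2.08, SE 0.09, limma adjusted p = 1.84e-07). Pdgfra, a receptor of platelet-derived growth factors, fell by 1.37 at 1 probe and was at -0.88 with no call at another, and the Vegf receptor Flt1, named after its values were seen, by 1.41. Angptl4 (-1.62) and the Met ligand Hgf (-1.45) lost their calls with slide as a term and after normexp. With slide as a term their log2 differences were -2.4 and -1.3. The axon guidance ligand Sema3a fell from -1.89, -2.0 and -1.87 to -3.89, -4.01 and -3.88 (4.02-fold, log2 change -2.01, SE 0.07, limma adjusted p = 3.68e-08), while its family member Sema3c rose 2.16-fold, a call lost with slide as a term. For Sema3a the 2 groups were each within a narrow band.

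**Figure D3:**
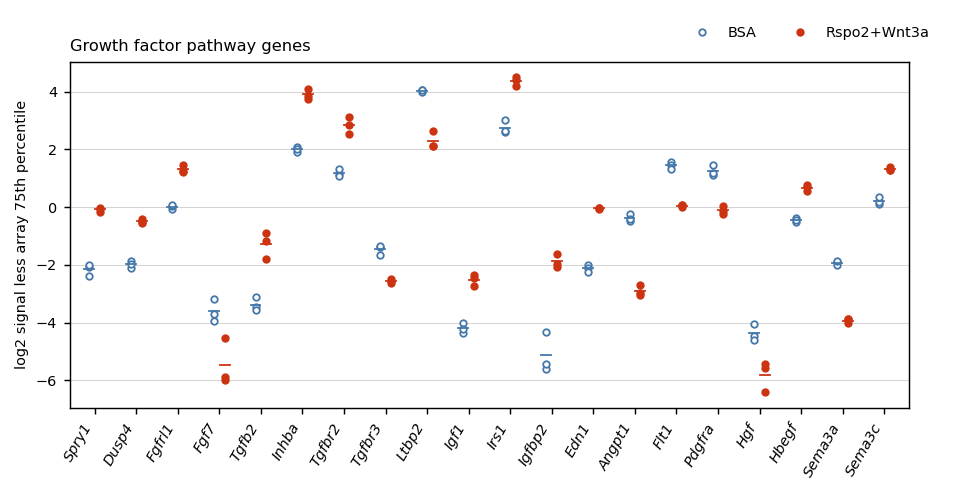
Levels (log2 signal less the 75th percentile of the array) of 20 genes of growth factor and guidance pathways, chosen after their values were seen, with open circles for BSA, filled circles for Rspo2 plus Wnt3a (3 arrays each) and bars for means. Feedback genes such as Spry1 (2.08) and ligands such as Inhba (1.89) and Edn1 (2.08) rose, while Angpt1 (-2.54) and Sema3a (-2.01) fell. Many genes shown are in the tables of the study, among them Spry1, Inhba, Edn1 and Angpt1.

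Cytokines and their receptors had 3 of 26 genes up-regulated and 3 down-regulated (median -0.15), against 1 and 2 with slide as a term. Il33, a nuclear cytokine of the interleukin-1 family, was at -4.19, -3.96 and -4.02 in BSA and 0.99, 1.03 and 1.01 with both proteins (33.6-fold, log2 change 5.07, SE 0.09, limma adjusted p = 1.37e-10). Its log2 change was 2.35 with Rspo2 alone and 3.46 with Wnt3a alone. Il1rn, the antagonist of the interleukin-1 receptor, rose 3.42-fold, but lost its call with slide as a term and after normexp. Osmr, a receptor of oncostatin M, fell by 1.20, and Tnfrsf9, a co-stimulatory receptor, by 1.40.

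Of 29 tested genes of cholesterol and oxysterol metabolism 1 was up-regulated and 2 were down-regulated, 10.3% against 4.49% of all genes called in either direction, and the median was -0.26. That median was -0.16 with slide as a term and after normexp, and -0.41 after quantile normalisation. Beside Ch25h, the called genes were the sterol exporters Abcg1 and Abca1. Abca1 fell from -2.58, -2.99 and -3.00 to -4.81, -5.04 and -4.80 (4.08-fold, log2 change -2.03, SE 0.15, limma adjusted p = 5.42e-06), a call lost after normexp. With Rspo2 alone the log2 changes were -0.39 for Ch25h, -0.57 for Abca1 and -0.21 for Abcg1, and with Wnt3a alone they were 1.45, -1.28 and -1.12.

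Among 14 retinoid and aryl hydrocarbon receptor genes 3 were up-regulated and 1 down-regulated, and 1 in each direction with slide as a term. Ahr, the aryl hydrocarbon receptor, rose from -0.54, -0.85 and -0.93 to 2.01, 2.06 and 2.19 (7.27-fold, log2 change 2.86, SE 0.11, limma adjusted p = 5e-08). Dhrs3, which reduces retinaldehyde to retinol, fell from 0.55, 0.58 and 0.51 to -1.44, -1.56 and -1.46 (4.08-fold, log2 change -2.03, SE 0.08, limma adjusted p = 8.15e-08). The log2 difference of Dhrs3 was 0.29 with Rspo2 alone and -0.40 with Wnt3a alone. Stra6 (2.29), the retinol transporter, and Cyp26b1 (2.47), which degrades retinoic acid, rose from a control group with 1 of 3 arrays well above background, and both calls were lost with slide as a term and after normexp. Hsd11b1, which regenerates active glucocorticoid and was the only gene called of 14 in its list, fell by 1.87, where the log2 difference was 0.73 with Rspo2 alone and -0.36 with Wnt3a alone.

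Enzymes and receptors of lipid mediators fell in 5 of 18 cases and rose in 1, against 3 and 1 with slide as a term. The gene that rose was Enpp2, or autotaxin, which makes lysophosphatidic acid, at -3.58, -3.95 and -4.06 in BSA and -0.73, -0.68 and -0.54 with both proteins (9.28-fold, log2 change 3.21, SE 0.20, limma adjusted p = 1.25e-06). Over the alternatives its log2 change was 2.08 to 4.30, the latter with slide as a term. Plpp3, a phosphatase that degrades the same lipid, fell from 3.59, 3.67 and 3.50 to 2.23, 1.98 and 1.87 (2.94-fold, log2 change -1.55, SE 0.10, limma adjusted p = 1.88e-06). The prostaglandin receptor Ptger4 fell by 1.20, and the sphingosine kinase Sphk1, named after its values were seen, by 1.06. Rapgef3, a guanine nucleotide exchange factor that binds cyclic AMP, rose from -1.09, -1.18 and -1.23 to 1.08, 1.12 and 1.11 (4.83-fold, log2 change 2.27, SE 0.11, limma adjusted p = 2.6e-07).

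Smooth muscle and contractile genes had 1 of 25 called (4%, against 4.49% of all genes), the LIM protein Fhl1 (3.25-fold, lost after normexp). Their median was 0.31, with 17 of 25 higher, where 7236 of all 12708 genes were higher, and it was 0.20 with slide as a term and 0.09 after quantile normalisation. Their summed signal, on the scale of the 75th percentile, was 541.6, 533.8 and 536.7 in BSA and 790.5, 759.1 and 715.0 with both proteins, with the strongest signal from Acta2, smooth muscle actin, whose probe differed by 0.78 on the log2 scale, short of 2-fold.

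Collagen chains had 2 of 19 down-regulated, Col5a3 (-1.55) and Col16a1 (-1.30), with a median of -0.49, but with slide as a term none of the 19 was called and the median was -0.04. Col22a1, whose fall is given above and kept its call under that term, is not in this list. Integrins and laminins had 4 of 21 down-regulated and 1 up-regulated (median -0.46), against 1 and 0 with slide as a term (median -0.09). Itgb3, the β3 integrin subunit, fell from -0.94, -1.09 and -1.01 to -2.65, -2.64 and -2.59 (3.06-fold, log2 change -1.61, SE 0.09, limma adjusted p = 7.39e-07) and kept its call with slide as a term. This was a cDNA probe, and at the RefSeq probe of Itgb3 the log2 difference was 0.16 (limma adjusted p = 0.568), so the probes of the gene disagree. Itga11, a collagen receptor subunit, fell by 2.04 and lost its call with slide as a term (adjusted p = 0.0818). Other matrix genes with calls that remained under that term were the glycoproteins Smoc1 (-1.93) and Fbln1 (-1.21), the proteoglycan Sdc2 (1.25) and the plasminogen activator Plat (1.29), and the call of Smoc1 was lost after normexp.

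Among transcription factors, Klf5, a regulator of epithelial growth, rose from 0.40, 0.56 and 0.19 to 2.92, 2.70 and 2.54 (5.05-fold, log2 change 2.34, SE 0.12, limma adjusted p = 5.67e-07). The zinc finger factor Egr2 fell by 1.75 and the forkhead factor Foxq1 by 1.25. Of the mesenchymal regulators 3 of 11 rose, among them Prrx2 (2.17-fold) and Tcf4 (2.19-fold), and with slide as a term 1 was called, Tcf4. None of 27 homeobox and T-box genes was called, where 4.49% of all genes were.

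The large housekeeping programmes had no call, where 4.49% of all genes were called, and small differences in level. Their genes are mostly bright, and the brightest of 4 signal classes of all tested probes had a median log2 difference of 0.24 (0.09 with slide as a term), beside which their medians are read. None of 30 DNA replication genes and none of 30 mitosis genes was called, and their medians were 0.23 and 0.18 (0.21 and 0.22 with slide as a term, 0.04 and 0.00 after quantile normalisation). All 30 cytosolic ribosomal protein genes were higher with both proteins, with a median of 0.40, but this was 0.01 with slide as a term and 0.05 after quantile normalisation. Oxidative phosphorylation subunits were also all higher (median 0.29, 0.09 with slide as a term). The 28 constitutive proteasome subunits were all higher (median 0.47), and here the median remained 0.33 with slide as a term and 0.19 after quantile normalisation. None of these genes reached 2-fold.

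**Figure D4:**
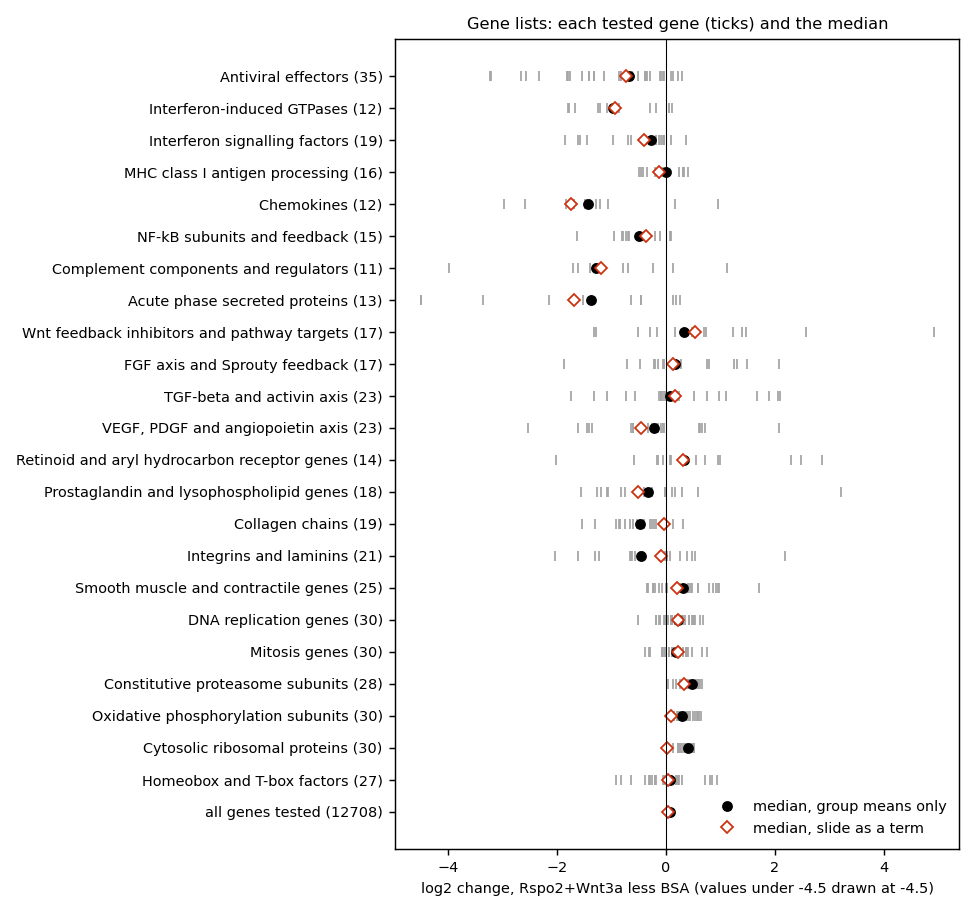
Log2 change of each tested gene (ticks) in the gene lists shown, with the number of genes in parentheses, black circles for medians in the fit of group means, diamonds for medians with slide as a term, and changes under -4.5 drawn at -4.5. Chemokines (median -1.43), acute phase proteins (-1.38) and complement genes (-1.29) lie farthest below 0, against a median of 0.07 over all genes.

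The labelled cell type was checked against markers. Of 17 luminal and milk genes 3 were well above background on all 6 arrays (Cd24a, with the strongest signal, Xdh and Areg) and 10 on none, among them the caseins Csn1s1 and Csn2 and the mucin Muc1. Of 21 keratins and epithelial factors 7 were well above background on all 6 arrays, and the summed signal, led by Krt14, was 17.2, 16.6 and 16.4 in BSA and 32.4, 29.9 and 29.3 with both proteins. Gene by gene, 4 of the 8 tested members were higher and 4 lower, with a median of -0.06 (-0.35 for those above background on all 6 arrays). Krt14, a keratin of basal mammary cells, rose 2.36-fold, while Krt8, a luminal keratin, fell by 1.15, and both lost their calls with slide as a term. With that term their log2 changes were 1.13 and -1.25. The call of Krt8 was also lost after normexp and after quantile normalisation, and its weakest log2 change over the alternatives was -0.77. Other members went other ways without a call. Trp63, Krt16 and Krt17 were lower on every treated array than on every control array, and Krt7 was higher in the mean. Luminal keratins Krt18 and Krt19, the epithelial factors Elf5, Grhl2 and Esrp1, and the epithelial junction genes Cdh1, Epcam, Ocln, Dsp, Cldn1, Cldn4 and Cldn7 were not detected in any group of 3 arrays by the rule used for testing. The luminal factor Gata3 and the basal genes Krt14 and Trp63 were well above background on all 6 arrays. In bulk RNA, fewer cells of a type and less RNA per cell cannot be told apart.

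Markers of other cell types were examined in the same way. Of 12 fibroblast markers 9 were well above background on all 6 arrays, and their sum, with the strongest signal from S100a4, was 413 to 433 in BSA and 429 to 444 with both proteins. Gene by gene, 8 of these 9 were lower, 6 of them at an adjusted p under 0.05 in limma (5472 and 2054 of all 12708 genes), and their median was -0.60 (-0.33 with slide as a term). Pdgfra was called, Dcn (-0.90), Col3a1 (-0.85), Postn (-0.60) and Pdgfrb (-0.60) were lower without reaching 2-fold, and S100a4 was at 0.19. Lum, Thy1 and Fap were not above background. Of 19 immune cell markers 4 were well above background on all 6 arrays and 6 on none, and their sums were 0.59 to 0.89 in BSA and 0.52 to 0.68 with both proteins, with the strongest signal from Cd68. The part of the fibroblast and immune markers in the decreases described above was not tested. Of 11 endothelial markers 1 was above background on all 6 arrays, Cdh5, and their sums were 2.52 to 2.69 in BSA and 1.81 to 1.87 with both proteins. Adipocyte genes, led by Plin2, summed to 195 to 213 in BSA and 152 to 174 with both proteins. Plin2 itself was at 5.59 to 5.65 in BSA and 5.72 to 5.76 with both proteins, while Fasn and Cebpb were lower. Plin1, Lpl, Cd36, Adipoq, Retn and Lep were not detected by the rule used for testing.

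The share of down-regulated probes differed between kinds of probe, which is given as a description with no test, since probes are not replicates. Of 5241 tested probes designed on a cDNA or EST accession 8.78% were down-regulated, against 2.15% of 16354 probes on a RefSeq accession, while the shares up-regulated were 1.16% and 1.35%. The share also fell with signal. In 4 classes of mean signal with 5688 or 5687 probes each, 9.35% of the dimmest and 0.74% of the brightest were down-regulated. Within the dimmest class the shares were 14.7% for cDNA or EST probes and 5.65% for RefSeq probes, and within the brightest they were 0.78% and 0.77%. With slide as a term the overall shares were 2.52% and 1.24%.

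Probes of the same gene did not always change together. Of 5490 genes with at least 2 tested probes, 281 had a probe called down-regulated, and in 58 of them (20.6%) all probes were called, while in 100 (35.6%) another probe differed in the opposite direction, called or not. For up-regulated calls there were 82 such genes, with all probes called in 34 (41.5%) and a probe of opposite sign in 7 (8.5%). Where all tested probes of a gene were on RefSeq accessions, 7 of 66 genes with a down-regulated probe (10.6%) had one of opposite sign, and where a probe was of another kind 93 genes (43.3%) had. Slirp, an RNA-binding protein of mitochondria, was among the largest decreases (-2.51) through a cDNA probe, while the log2 difference at its RefSeq probe was 0.50. Among other genes named here, a further probe had no call for Il1rn (1.59), Ltbp2 (-0.63), Plat (0.48), Sema3c (0.40) and Tcf4 (0.45 and 0.92), and a second probe lost its call with slide as a term for Irs1 and Notum. No gene had probes called in both directions. Why these probe kinds differed was not tested.

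**Figure D5:**
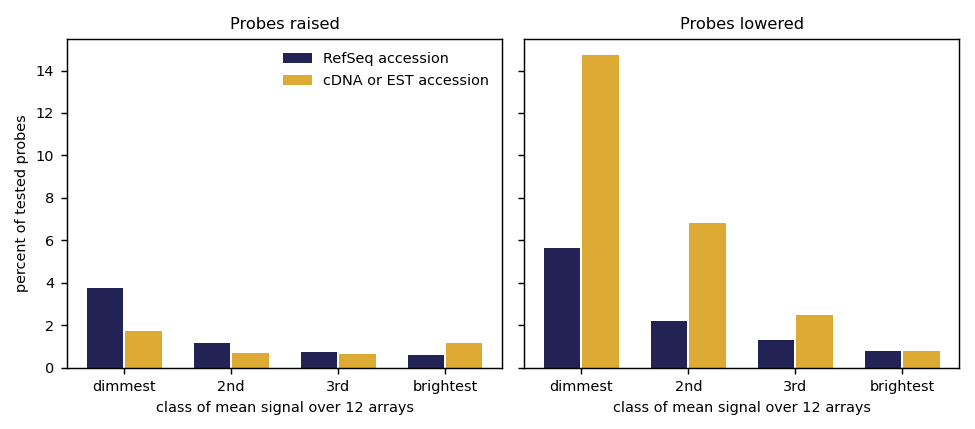
Percent of tested probes up-regulated (left) and down-regulated (right), in 4 classes of mean signal over the 12 arrays, each with 1 in 4 of the probes, for probes on RefSeq accessions and on cDNA or EST accessions. In the dimmest class 14.7% of cDNA or EST probes and 5.65% of RefSeq probes were down-regulated, and in the brightest 0.78% and 0.77%.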

How the data were processed

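Total RNA from 12 C57MG monolayers, 3 in each of 4 groups, was hybridised to 1-colour Agilent 4x44K mouse arrays on 3 slides. The deposited scanner files give intensity values, which the authors obtained with Agilent Feature Extraction 9.5.3.1 (named in the submitters' processing notes): per the file headers, the processed signal is background-subtracted and detrended within each array, and not scaled between arrays. A deposited table holds the same signals as a ratio to the 75th percentile of each array, rounded by the authors, and was used as an alternative. All columns of values were matched to samples (0 unmatched).

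Control spots and outlier spots (1327 of 520548 spot values) were left out. The processed signal was averaged over the remaining spots of a probe, which gave 41174 probes. The log2 of this mean was then taken, less the log2 of the 75th percentile over the probes of the array. Symbols came from RefSeq through the accession for 22951 probes and from the file for 11758, and 6465 had none. Group means were fitted with limma 3.58.1 (R 4.3.3) over all 12 arrays, with Benjamini-Hochberg adjustment over the 22751 probes that the scanner software marked as well above background on every array of some group. The design called for 2-fold and an adjusted p of 0.05. A change that meets a group without any array above background was given as a bound. Summaries used Python 3.11.15 and pandas 2.3.3, and the fit was tested on simulated data. The labels name biological replicates, which the study describes as separate monolayers.

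Named genes were the 15 largest rises and the 15 largest falls among called probes with a symbol, above background on all 6 arrays, without overlap between groups and outside the tables of the study, and in each of 59 gene lists up to 4 called genes with the largest change, or up to 2 where none was called. Members and lists were chosen with earlier results of these data known. A list is described by counts and a median over its genes, each represented by the probe with the strongest signal, with no test. Alternatives were slide as a term, the 6 arrays alone, the replicate block, normexp background (offset 50), quantile normalisation, a percentile over probes above background, the deposited table, other filters on dim probes, outliers kept, each replicate left out, and the t-test of the methods. Columns of the study's own comparisons were not used.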

Additional observations from a re-analysis of the deposited data

How the results depend on the processing

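Over all tested probes, 292 were up-regulated and 863 down-regulated, against 149 and 351 with slide as a term (118 and 303 above background on all 6 arrays) and 116 and 234 after normexp (114 and 229). Of the probes called with slide as a term, 120 and 267 were also called without it. Probes above background on all 12 arrays gave 177 up-regulated, and the methods' t-test after Benjamini-Hochberg adjustment gave 193 and 499 (437 down-regulated above background on all 6 arrays), against 264 and 777 unadjusted. Quantile normalisation called 403 and 651, so that 38.2% of calls were up-regulated in place of 25.3%. The share moved the other way with the percentile taken over probes above background, which called 236 and 1144 (17.1% up-regulated). Without a filter on dim probes the counts were 296 and 1244 (19.2% up-regulated). Leaving out each replicate gave 264 to 369 up-regulated and 735 to 999 down-regulated, and 170 to 208 and 557 to 745 above background on all 6 arrays. The median change of all tested probes was 0.04, and moved to -0.07 with the percentile taken over probes above background and to -0.06 after normexp.

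Of 138 called genes among the 163 named, 66 kept their call under every alternative in which they were tested, 47 lost it with slide as a term and 48 after normexp, and none reversed. The uncalled genes Hoxb7 (-0.054, normexp), Cd4 (-0.24, normexp) and Areg (-0.10, slide as a term) turned direction. The medians of 18 of 59 lists changed sign under an alternative, 7 of them with slide as a term. The replicate block gave 291 and 858 (185 and 655 above background on all 6 arrays) and moved no count by over 1.5 times; the same-numbered arrays correlated at 0.154, 0.060 and 0.272, so the numbers were not taken as pairs. Dim probes limit what can be said of sizes: where a group was at background, changes are bounds. The cause of the lost calls was not tested.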

Other observations

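Further lists that belong to none of the groups above are given here, with shares called read against 4.49% of all genes. The share was 4.5% for junction genes and for glycolysis and hypoxia genes, and 6.67% for adipocyte genes. It was 11.1% for the Egf and ErbB family, 11.5% for solute carriers and 11.8% for Hedgehog and Hippo genes. The gap junction protein Gja1 was the only gene called of 22 cadherins, claudins and junction proteins and rose 2.23-fold. Ccn1 and Ccn2, matricellular targets of Yap, rose 2.56-fold and 2.53-fold, the only calls among 17 Hedgehog and Hippo genes, and the ErbB ligand Hbegf rose 2.18-fold as the only call among 9 genes of its family. The hypoxia-induced carbonic anhydrase Car9 fell by 1.32 on the log2 scale, the only call among 22 genes of glycolysis and hypoxia, and was lost after normexp. Of 26 solute carriers the glutamate transporter Slc1a3 (-1.34) and the iron exporter Slc40a1 (-1.08) fell and kept their calls with slide as a term, while the amino acid carrier Slc38a1 (2.5-fold) rose and did not. The methods' t-test after adjustment did not call Slc1a3. The iron exporter lost its call after normexp, after quantile normalisation and without BSA replicate 3. Cebpd, a factor of adipocyte differentiation and the acute phase response, fell by 1.08, the only call among 15 adipocyte genes. None of 19 heat shock genes, 25 lysosome and autophagy genes or 12 matrix crosslinking genes was called.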
